A study of Caenorhabditis elegans with 6 samples.

Results

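The genes described here are the 7 soluble guanylate cyclase genes gcy-31 to gcy-37, the cyclic nucleotide-gated channel subunit genes tax-2 and tax-4 and the globin gene glb-5 of Caenorhabditis elegans. They were taken by name, and all 10 were among the 14700 genes of the deposited table. Messenger RNA had been measured by CEL-seq, which tags the 3′ ends of transcripts, in pools of 2000 QR neuroblast descendants from first-stage larvae fed for 7 hours, with 3 libraries in each of 2 groups. Controls had the mab-5(gk670) mutation together with huIs166 and ayIs9. The ΔN-BAR-1 group had the same 3 and also huIs179; the series title names canonical Wnt signalling targets as the aim, and its text calls this group ΔN-BAR-1Q, BAR-1 being the β-catenin of the canonical pathway. Both groups were thus mutant for mab-5, a Hox gene, and nothing in the labels gives the promoter of huIs179 or says whether the 3 libraries of a group came from separate cultures. The p-values therefore rest on the spread among the libraries of a group, part of which may be technical.

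In the worm, oxygen is sensed by soluble guanylate cyclases that bind it through a haem domain and make cyclic GMP, which opens the TAX-2/TAX-4 cation channel. GCY-35 and GCY-36 act together in the body cavity neurons AQR, PQR and URX, where gcy-32, gcy-34 and gcy-37 are also expressed, while GCY-31 and GCY-33 are known for the response of the BAG neurons to falling oxygen. GLB-5 is a neuronal globin that tunes these responses. The QR neuroblast gives rise to AQR, to the touch neuron AVM and to the interneuron SDQR.

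Library totals ranged from 68431 counts in control replicate 3 to 254362 in control replicate 2, so that 1 count was worth 3.93 to 14.6 CPM, the count scaled to library size. Of the 10 genes, 6 had enough counts to pass the low-count filter, and gcy-31, tax-2, tax-4 and glb-5 did not. None of the 10 reached the level at which the molecular identifiers of the assay run out, the highest being gcy-36 with 149 distinct identifiers in ΔN-BAR-1 replicate 3. ΔN-BAR-1 replicate 1 stood apart from the other libraries, with 72846 CPM (here and below on library sizes scaled by the TMM method) from cytosolic ribosomal protein genes against 131098 to 148470 CPM elsewhere, and its values are pointed out below where they set the order.

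With ΔN-BAR-1, the summed level of the 7 cyclase genes was 2440 ± 359 CPM, against 1309 ± 10.8 CPM in control (SD, n = 3 each). It stood at 1321, 1304 and 1301 CPM in control replicates 1 to 3 and at 2256, 2211 and 2855 CPM in ΔN-BAR-1 replicates 1 to 3, so the groups lay apart. The sums came from 186, 317 and 79 counts in control and 415, 435 and 583 with ΔN-BAR-1. Counting error alone at those control counts is larger than the SD of 10.8 CPM, which thus understates the uncertainty of the control level. No single gene of the 10 passed the test, which was edgeR's quasi-likelihood test with Benjamini-Hochberg adjustment over all 3447 genes tested. Of those 3447 genes, 1.65% passed in either direction, 1.57% being higher and 0.087% lower, whereas 0 of the 6 tested cyclase genes passed; DESeq2 and limma-voom also called 0. At an unadjusted p below 0.05, 5 of the 6 were higher with ΔN-BAR-1, beside 8.21% of all tested genes (3.42% were lower), and in the same 5 the libraries of the groups did not overlap, beside 10.4% of all tested genes that lay higher without overlap and 7.08% that lay lower. Without ΔN-BAR-1 replicate 3 the number at an unadjusted p below 0.05 was 3, beside 11% of all genes tested in that fit. The median log2 fold change of the 6 was 1.22, beside 0.00 over all genes tested. The filter can add to this number and this median, since gcy-33 and gcy-34 passed it through the ΔN-BAR-1 libraries. In counts, gcy-34 reached 10 only in those libraries and gcy-33 in 1 control library as well. The size of this effect was not tested. A pool with more cells of one type and a pool with more RNA per cell cannot be told apart in such bulk samples.

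**Figure D1:**
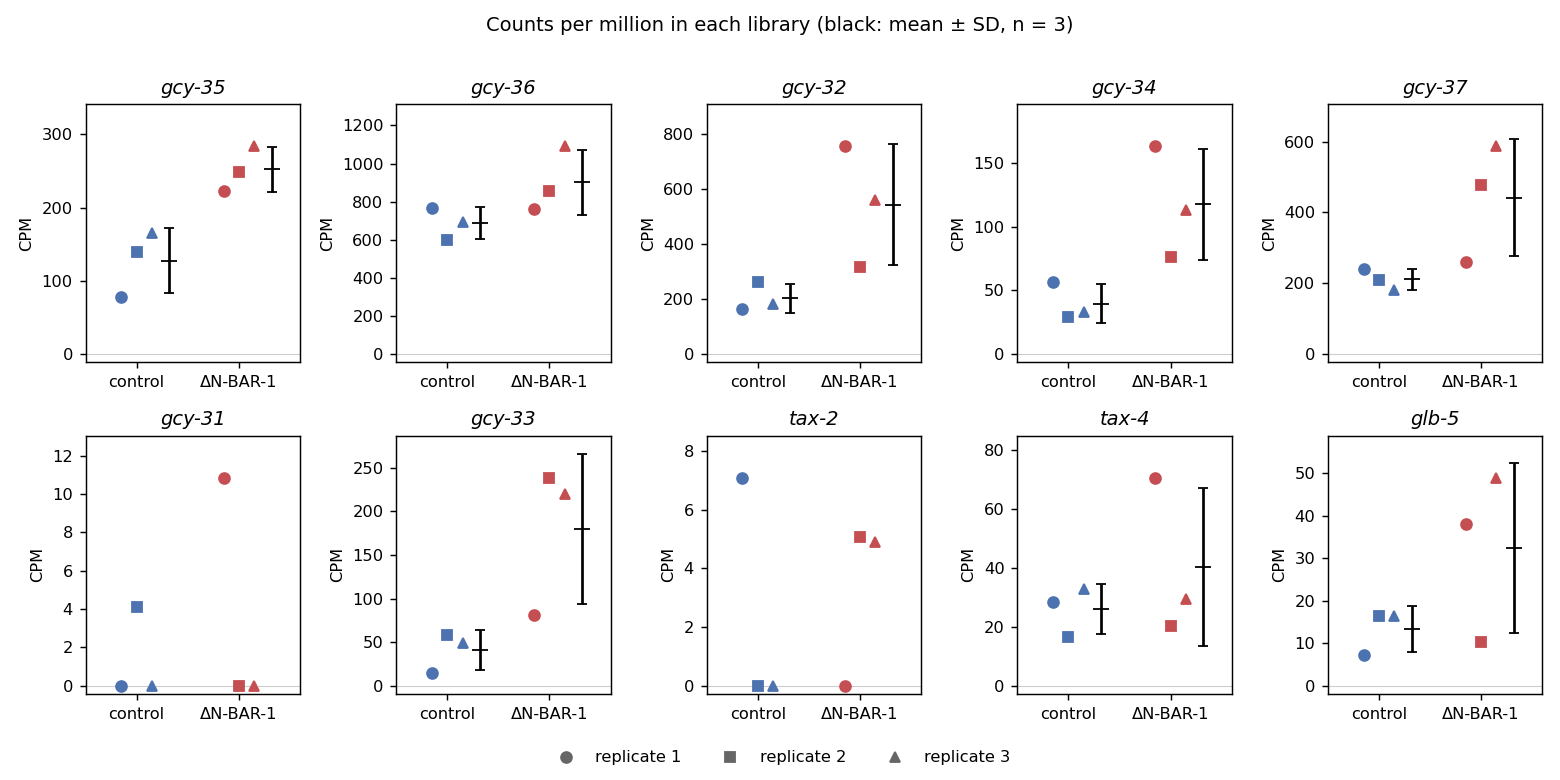
CPM (vertical axis, from 0) of each gene in the 3 control and 3 ΔN-BAR-1 libraries, marker shape giving the replicate number and black bars the mean ± SD of 3 libraries (left out for gcy-31 and tax-2, which had at most 2 counts in a library). The groups lie apart for gcy-32, gcy-33, gcy-34, gcy-35 and gcy-37 and overlap for gcy-36, tax-4 and glb-5.

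Of the GCY-35 and GCY-36 pair, gcy-36 was the most abundant of the 10 genes in every library, though in ΔN-BAR-1 replicate 1 only by 761 CPM against 756 CPM of gcy-32. It stood at 767, 600 and 692 CPM in control replicates 1 to 3 and at 761, 854 and 1092 CPM in ΔN-BAR-1 replicates 1 to 3. The groups overlapped, ΔN-BAR-1 replicate 1 lying just under control replicate 1. Its mean was 686 ± 83.4 CPM in control and 902 ± 171 CPM with ΔN-BAR-1 (SD, n = 3 each), a log2 fold change of 0.40 ± 0.31 (SE; edgeR's adjusted p = 0.721) with a 95% interval from -0.24 to 1.04. The upper end of that interval is about the size estimated for gcy-35, so the p-value does not show that gcy-36 was level.

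Its partner gcy-35 stood at 78.1, 140 and 165 CPM in control replicates 1 to 3 and at 223, 249 and 284 CPM in ΔN-BAR-1 replicates 1 to 3. All ΔN-BAR-1 libraries were above all control libraries, and control replicate 1 was the lowest. The means were 128 ± 44.6 and 252 ± 30.7 CPM (SD, n = 3 each), with a log2 fold change of 1.02 ± 0.38 (SE; edgeR's adjusted p = 0.227). In the annotation used here, the RNA metabolism gene casc-3 lies over the last exon of gcy-35 on the opposite strand, and whether the authors' counting used the strand is not given in the sources used here. Counts of casc-3, not scaled to library size, were 59, 74 and 23 in control replicates 1 to 3 and 86, 64 and 109 in ΔN-BAR-1 replicates 1 to 3. Another opposite-strand gene, T04D3.5, lies over an exon of gcy-35 other than the last. It held 7, 17 and 5 counts in control and 24, 18 and 21 with ΔN-BAR-1, likewise not scaled. Reads shared between these genes cannot be told apart from a change in gcy-35.

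The other body cavity neuron cyclase genes, gcy-32, gcy-34 and gcy-37, had log2 fold changes between 1.05 and 1.56. Levels of gcy-32 were 163, 263 and 181 CPM in control replicates 1 to 3 and 756, 315 and 558 CPM in ΔN-BAR-1 replicates 1 to 3. The groups did not overlap, but ΔN-BAR-1 replicate 2 lay close to control replicate 2, and ΔN-BAR-1 replicate 1 was the highest. The log2 fold change of gcy-32 was 1.38 ± 0.37 (SE; 95% interval 0.62 to 2.15), and its adjusted p by edgeR of 0.0578 was just over the threshold of 0.05; its p ranked 68th among all genes, of which 57 passed. Without ΔN-BAR-1 replicate 1 the log2 fold change was 1.07 (edgeR's adjusted p = 0.0917). Without ΔN-BAR-1 replicate 2 it was 1.62 and passed (edgeR's adjusted p = 0.0264).

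Levels of gcy-34 were 56.8, 28.8 and 32.9 CPM in control replicates 1 to 3, from 8, 7 and 2 counts. They were 163, 76.2 and 113 CPM in ΔN-BAR-1 replicates 1 to 3, from 30, 15 and 23 counts. The groups did not overlap, and ΔN-BAR-1 replicate 1 was again the highest, as for gcy-32. The log2 fold change was 1.56 ± 0.52 (SE; edgeR's adjusted p = 0.152), and over single libraries left out it ran from 1.24 to 1.91. The gene cpz-2 is annotated over the last exon of gcy-34 on the opposite strand, and held 1, 1 and 0 counts in control and 5, 2 and 0 in ΔN-BAR-1 replicates 1 to 3.

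Levels of gcy-37 were 241, 210 and 181 CPM in control replicates 1 to 3 and 261, 478 and 588 CPM in ΔN-BAR-1 replicates 1 to 3. Here ΔN-BAR-1 replicate 1 was the lowest of its group and lay barely above control replicate 1, the reverse of its place in gcy-32 and gcy-34. The log2 fold change was 1.05 ± 0.36 (SE; edgeR's adjusted p = 0.156). Without ΔN-BAR-1 replicate 1 it was 1.32 and passed (edgeR's adjusted p = 0.0197). Without ΔN-BAR-1 replicate 3 it was 0.76 (edgeR's adjusted p = 0.490), and without both libraries numbered 3 it was 0.69 (edgeR's adjusted p = 0.729).

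Among the BAG-type cyclase genes, gcy-33 had the largest log2 fold change of the tested members. It held 2, 14 and 3 counts in control replicates 1 to 3, or 14.2, 57.6 and 49.4 CPM. It held 15, 47 and 45 counts in ΔN-BAR-1 replicates 1 to 3, or 81.5, 239 and 220 CPM. The groups did not overlap, with ΔN-BAR-1 replicate 1 well below the other libraries of its group. The log2 fold change was 2.12 ± 0.55 (SE; 95% interval 0.98 to 3.26), and its adjusted p by edgeR of 0.0536 was over the threshold, its p ranking 60th of all genes. Without ΔN-BAR-1 replicate 1 the log2 fold change was 2.46 and passed (edgeR's adjusted p = 0.00290), and without control replicate 1 it was 1.69 (edgeR's adjusted p = 0.338). The low control counts make the size uncertain: the counts pooled within groups, 19 against 107, gave a ratio of 4.14 with an exact interval of 2.52 to 7.14, which covers counting error only.

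The partner of GCY-33, gcy-31, was at the edge of detection. It held 0, 1 and 0 counts in control replicates 1 to 3 and 2, 0 and 0 in ΔN-BAR-1 replicates 1 to 3. A count of 0 allows up to 3 counts, which is 21.3 CPM in control replicate 1, 49.4 CPM in control replicate 3 and 14.7 CPM in ΔN-BAR-1 replicate 3. No difference was detectable at this depth, the ratio of pooled counts being 1.47 with an exact interval of 0.0765 to 86.6. The annotated gene over the last exon of gcy-33, C52E4.7, had 1 count in all 6 libraries together.

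The channel genes were likewise near the limit of detection. The β-subunit gene tax-2 held 1, 0 and 0 counts in control replicates 1 to 3 and 0, 1 and 1 in ΔN-BAR-1 replicates 1 to 3. The α-subunit gene tax-4 held 4, 4 and 2 counts in control and 13, 4 and 6 with ΔN-BAR-1, that is 25.9 ± 8.52 and 40.1 ± 26.8 CPM (SD, n = 3 each). Only ΔN-BAR-1 replicate 1 was above the control libraries in tax-4, and the groups overlapped. The pooled ratio was 1.69, with an exact interval of 0.773 to 3.98. Tested without the low-count filter, tax-4 stood at a log2 fold change of 0.69 ± 0.78 (SE; edgeR's adjusted p = 0.754).

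The globin gene glb-5 held 1, 4 and 1 counts in control replicates 1 to 3 and 7, 2 and 10 in ΔN-BAR-1 replicates 1 to 3. The means were 13.3 ± 5.40 and 32.4 ± 20.01 CPM (SD, n = 3 each), and ΔN-BAR-1 replicate 2 lay within the control range. The pooled ratio was 2.33 with an exact interval of 0.893 to 7.11, and without the low-count filter the log2 fold change was 1.22 ± 0.93 (SE; edgeR's adjusted p = 0.754).

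**Figure D2:**
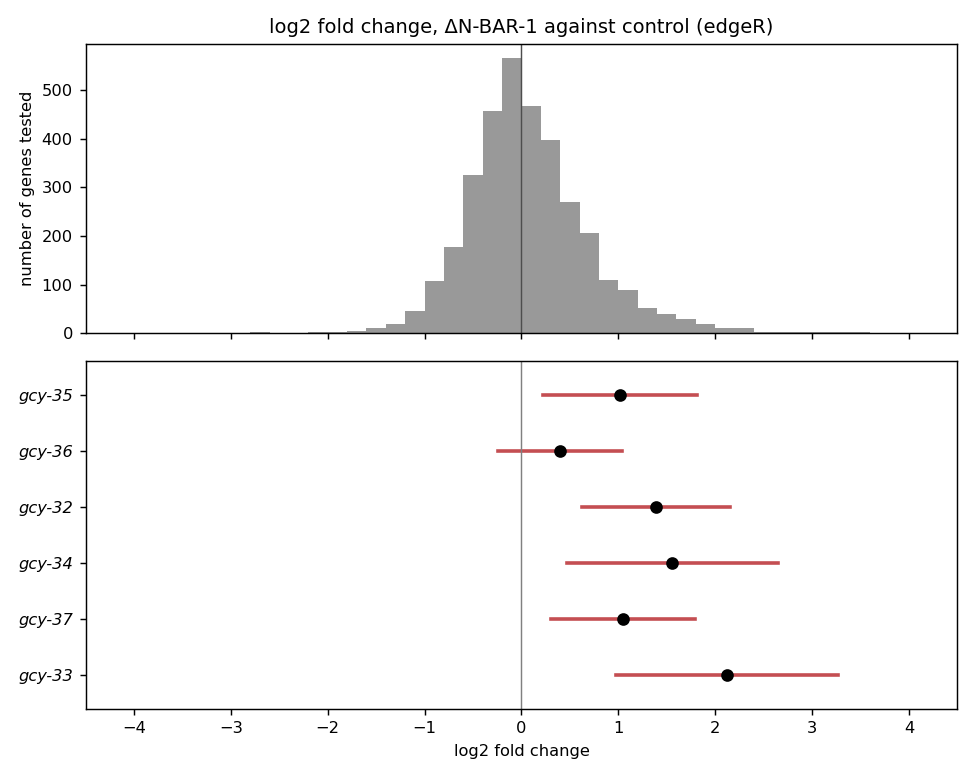
Top, number of tested genes (vertical axis) by log2 fold change, ΔN-BAR-1 against control; bottom, the same scale for the 6 tested cyclase genes, with points for the estimate and lines for the 95% interval. The intervals of 5 genes lie above 0 before adjustment, and that of gcy-36 runs from -0.24 to 1.04.

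Since 3′ tagging gives 1 tag per transcript whatever its length, the CPM of the genes can be set in order within a group, apart from differences in capture between genes. In control the order began with gcy-36 at 686 ± 83.4 CPM, followed by gcy-37 at 211 ± 30.2, gcy-32 at 203 ± 53.3 and gcy-35 at 128 ± 44.6 CPM (SD, n = 3 each). The libraries of gcy-36 lay above those of every other gene, while gcy-37 and gcy-32 overlapped each other, as did gcy-32 and gcy-35. Next came gcy-33 at 40.4 ± 23.05 and gcy-34 at 39.5 ± 15.1 CPM, which did not differ beyond their spread. With ΔN-BAR-1 gcy-36 stayed first, and gcy-32 at 543 ± 221 CPM preceded gcy-37 at 442 ± 166 CPM, with overlapping libraries, and those of gcy-37 overlapped those of gcy-35. They were followed by gcy-35 at 252 ± 30.7, gcy-33 at a mean of 180 (81.5 to 239) and gcy-34 at 117 ± 43.6 CPM. The libraries of gcy-35 overlapped those of gcy-33, and those of gcy-33 overlapped those of gcy-34.

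Within the family, the share of counts that came from gcy-36 was lower with ΔN-BAR-1. This share needs no scaling between libraries. It was 58.1% in control replicate 1 (exact 95% interval 50.6 to 65.2), 46.1% in control replicate 2 (40.5 to 51.7) and 53.2% in control replicate 3 (41.6 to 64.5). It was 33.7% in ΔN-BAR-1 replicate 1 (29.2 to 38.5), 38.6% in ΔN-BAR-1 replicate 2 (34.02 to 43.4) and 38.3% in ΔN-BAR-1 replicate 3 (34.3 to 42.3). The groups lay apart, at 52.4 ± 6.04% and 36.9 ± 2.72% (SD, n = 3 each), although the CPM of gcy-36 itself overlapped. The sum of the other 6 cyclase genes was 554, 703 and 609 CPM in control replicates 1 to 3 and 1495, 1357 and 1763 CPM in ΔN-BAR-1 replicates 1 to 3. No test is attached to this share, because the genes were chosen with results of these data known.

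The other shares overlapped between the groups. That of gcy-32 ran from 12.4 to 20.2% in control and from 14.3 to 33.5% with ΔN-BAR-1, the highest being ΔN-BAR-1 replicate 1. That of gcy-33 ran from 1.08 to 4.42% and from 3.61 to 10.8%, with ΔN-BAR-1 replicate 1 the lowest of its group. The share of gcy-37 ran from 13.9 to 18.3% and from 11.6 to 21.6%, again with ΔN-BAR-1 replicate 1 lowest. The ΔN-BAR-1 libraries thus differed among themselves in which cyclase genes made up the sum. Replicate 1 was high in gcy-32, gcy-34 and tax-4 and low in gcy-33, gcy-35, gcy-36 and gcy-37. The part played in this by whatever set replicate 1 apart in ribosomal protein genes was not tested.

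**Figure D3:**
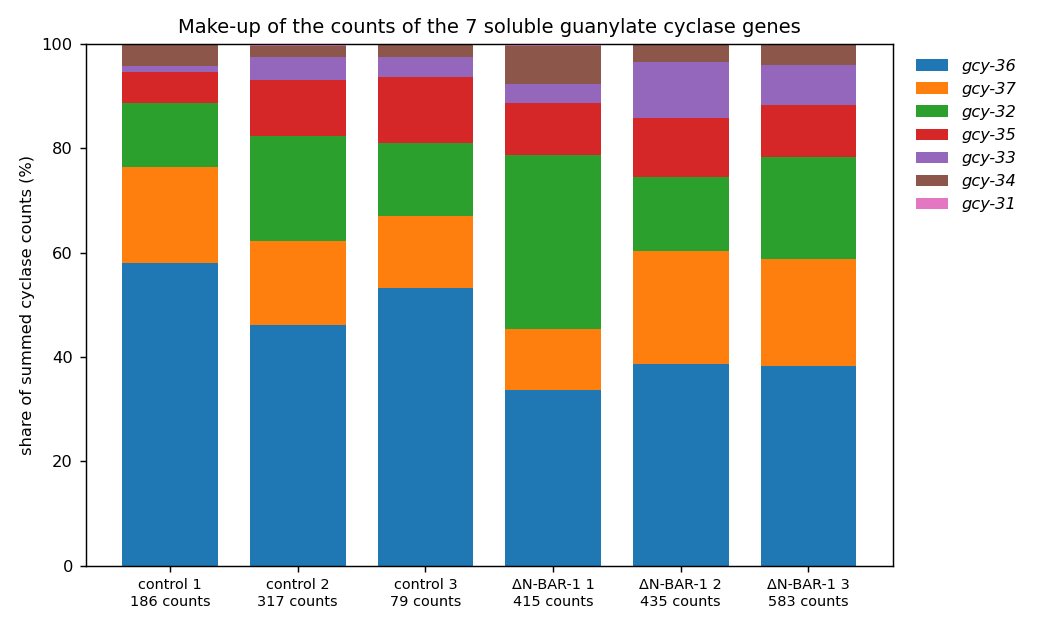
Share of the summed counts of the 7 cyclase genes (vertical axis, %) that came from each gene, by library, with the summed count under each bar. The gcy-36 segment spans 46.1 to 58.1% in the control libraries and 33.7 to 38.6% in the ΔN-BAR-1 libraries, and gcy-32 is widest in ΔN-BAR-1 replicate 1.

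Genes that act with the cyclases were examined from lists chosen by function. Among 18 cyclic GMP signalling partners, a list that also holds calcium and G protein signalling genes, 10 were tested and 0 passed by edgeR. Their median log2 fold change was 0.96. At an unadjusted p below 0.05, 5 were higher and 0 lower, beside 8.21% and 3.42% of all tested genes. The largest of these was cmk-1, which encodes a calcium and calmodulin-dependent kinase, at 1.33 ± 0.36 (SE; edgeR's adjusted p = 0.0606), from 171 ± 76.9 to 452 ± 56.4 CPM. The phosphodiesterase gene pde-1 stood at 1.32 ± 0.39 and the calcineurin gene tax-6 at 1.18 ± 0.36 (edgeR's adjusted p = 0.0949 and 0.111). The channel gene cng-1, related to tax-2 and tax-4, held 5, 13 and 1 counts in control and 20, 17 and 15 with ΔN-BAR-1. The other channel genes cng-2 and cng-3 were at 0 in all libraries.

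The receptor-type guanylate cyclases, the transmembrane branch of the family that serves chemosensory neurons, were in most cases low or at 0. Of 29 listed, 22 were in the table, 14 of these were at 0 in all 6 libraries, and 1, gcy-28, was tested (log2 fold change 0.01 ± 0.66, edgeR's adjusted p = 0.998). Their summed level was 98.8 to 140 CPM in control and 96.6 to 240 CPM with ΔN-BAR-1, and daf-11 and odr-1 were at 0 throughout. Among 32 other globin genes, 2 were tested and 0 passed: glb-1 at 1.24 ± 0.67 and glb-24 at 0.42 ± 0.42 (SE), with edgeR's adjusted p of 0.571 and 0.807, and 0 at an unadjusted p below 0.05.

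The labelled identity of the cells was set against genes of AQR, PQR and URX fate and function. Of 14 listed, 7 were tested and 0 passed by edgeR, with a median of -0.11. At an unadjusted p below 0.05, 1 was higher and 1 lower, beside 8.21% and 3.42% of all tested genes. The aryl hydrocarbon receptor gene ahr-1, known to act in the fate of these neurons, stood at 844 ± 118 CPM in control and 1195 ± 384 CPM with ΔN-BAR-1, and the SoxD gene egl-13 at 2979 ± 1050 and 2077 ± 319 CPM (SD, n = 3 each). The neuropeptide gene flp-21 stood at a log2 fold change of 1.70 ± 0.44 (SE; edgeR's adjusted p = 0.0544), from 18, 43 and 6 counts to 32, 114 and 127 counts, with overlapping groups. The proneural gene lin-32 stood at -1.24 ± 0.34 (SE; edgeR's adjusted p = 0.0685) and unc-31, which acts in dense-core vesicle release, at 1.32 ± 0.69 (edgeR's adjusted p = 0.494). The peptide genes flp-8 and flp-10 and the receptor gene npr-1, markers of the mature neurons, had 0 to 2, 0 and 0 to 2 counts in the control libraries and 0 to 6, 0 to 1 and 2 to 9 counts with ΔN-BAR-1. The cyclase transcripts were thus present in pools in which tax-2, flp-8, flp-10 and npr-1 held at most 9 counts in a library. Other genes of the same list, such as flp-21, ahr-1 and egl-13, were detected at higher levels.

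Since gcy-31 and gcy-33 mark BAG, defining genes of that neuron were also counted. The transcription factor gene ets-5 and the receptor cyclase gene gcy-9 were at 0 in all libraries, and flp-17 held 2, 3 and 0 counts in control and 0, 3 and 0 with ΔN-BAR-1. Of 9 BAG-list genes, 8 were in the table, 3 of them at 0 throughout, and the sum was 2040 to 4134 CPM in control and 1957 to 2552 CPM with ΔN-BAR-1, most of it from egl-13. Of the 2 tested, 0 passed by edgeR and 1 was higher at an unadjusted p below 0.05, beside 8.21% of all tested genes. This was the synaptic active zone gene rimb-1, at 1.79 ± 0.47 (SE), with edgeR's adjusted p of 0.0578. Markers of other sensory neurons were at 0 in all libraries for 9 of 17 genes, and their sum was 16.5 to 82.3 CPM in control and 10.9 to 58.8 CPM with ΔN-BAR-1.

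Touch neuron genes, which mark the AVM branch of the lineage, passed the edgeR test in 5 of 7 tested cases. Each of them was higher, beside 1.57% of all tested genes that passed as higher. The number was 3 without control replicate 1 or control replicate 2. By limma-voom, with the replicate number as a term, or without both libraries numbered 3, the number was 2. The sum of the 15 touch neuron genes in the table was 2690 to 3475 CPM in control and 4348 to 6120 CPM with ΔN-BAR-1. The sum of 18 body wall muscle markers was 9888 to 16815 CPM in control and 7186 to 21602 CPM with ΔN-BAR-1, with ΔN-BAR-1 replicate 1 the lowest of the 6 libraries. Most of this sum came from unc-54 and act-4, and unc-54 alone stood at 2272, 7218 and 15580 CPM in ΔN-BAR-1 replicates 1 to 3. Of the other muscle markers, myo-3 had 1 count in each group and hlh-1 was at 0 in all libraries. Of 11 muscle markers tested, 0 passed by edgeR and the median was -0.47. In this list 1 was higher at an unadjusted p below 0.05, beside 8.21% of all tested genes. Hypodermal and seam markers (16.5 to 163 and 10.9 to 162 CPM), those of intestine, pharynx and germline (419 to 576 and 305 to 431 CPM) and glial markers (169 to 346 and 179 to 313 CPM) were low in both groups. The part of these other cell types in the cyclase values was not tested.

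Oxygen is also read by the hypoxia pathway, in which EGL-9 and VHL-1 keep the factor HIF-1 low. Of 13 listed genes, 8 were tested and 0 passed by edgeR, with a median of 0.13. At an unadjusted p below 0.05, 2 were higher, beside 8.21% of all tested genes. The sulphide metabolism gene cysl-1, which acts on EGL-9, stood at 1.51 ± 0.41 (SE; edgeR's adjusted p = 0.0606), the nuclear receptor gene nhr-49 at 0.88 ± 0.40 (0.383) and hif-1 itself at 0.49 ± 0.33 (0.659). For the cilium, at which AQR is exposed to the body cavity, 12 of 34 listed genes were tested and 0 passed by edgeR. Their median was 0.28, and 1 was higher at an unadjusted p below 0.05, beside 8.21% of all tested genes. This was dyf-6, at 1.18 ± 0.37 (SE), with edgeR's adjusted p of 0.120. The next smallest p-values belonged to ift-20 and che-13, each at 0.82.

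**Figure D4:**
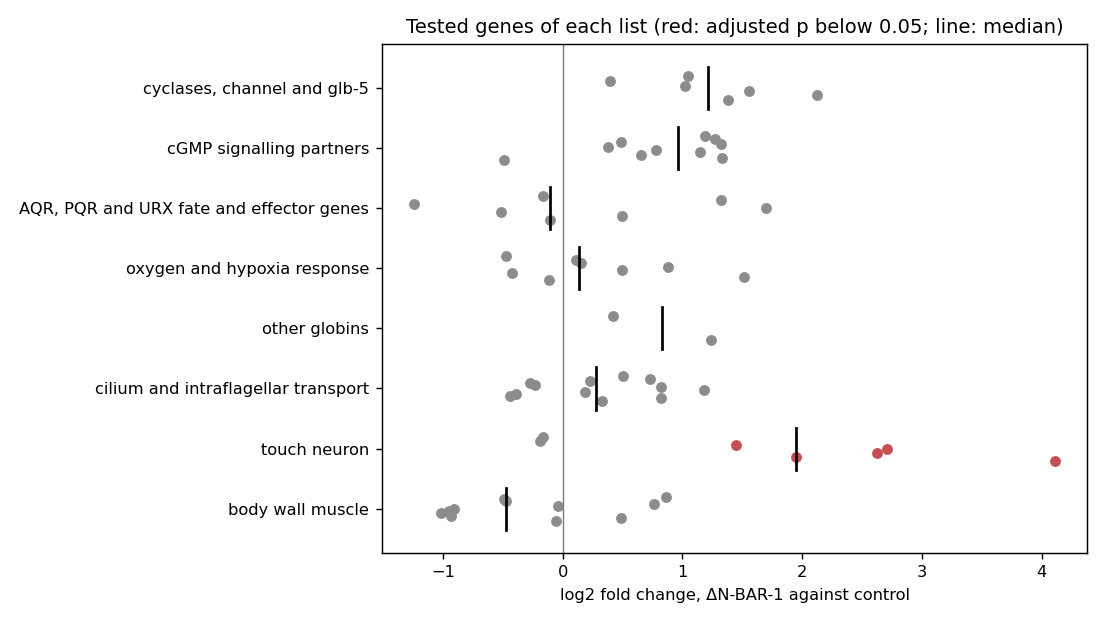
Log2 fold change (horizontal axis) of each tested gene in 8 lists, with the list median as a black line and genes at an adjusted p below 0.05 in red. Red points occur only in the touch neuron list. The medians of the cyclase and cyclic GMP partner lists are 1.22 and 0.96, and that of muscle markers is -0.47. The low-count filter can add to the cyclase median, since gcy-33 and gcy-34 passed it through the ΔN-BAR-1 libraries.

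The genes most like the cyclase genes were sought by the correlation of their centred log2 CPM with the mean of the 6 tested cyclase genes over the 6 libraries. The mean profile was -0.72, -0.47 and -0.52 in control replicates 1 to 3 and 0.42, 0.48 and 0.81 in ΔN-BAR-1 replicates 1 to 3. The 5 closest were aps-2, a clathrin adaptor subunit gene (r = 0.981), lin-10, a PDZ adaptor gene (0.979), Y54G2A.26 (0.977), unc-43, the calcium and calmodulin-dependent kinase II gene (0.976), and K10G9.2 (0.976). Their log2 fold changes ran from 0.74 for aps-2 to 1.78 for K10G9.2, and none passed the edgeR test (adjusted p 0.0517 to 0.418). These values share libraries and scaling, and with 2 groups of 3 libraries the measure does not separate likeness between the groups from likeness within them.

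**Figure D5:**
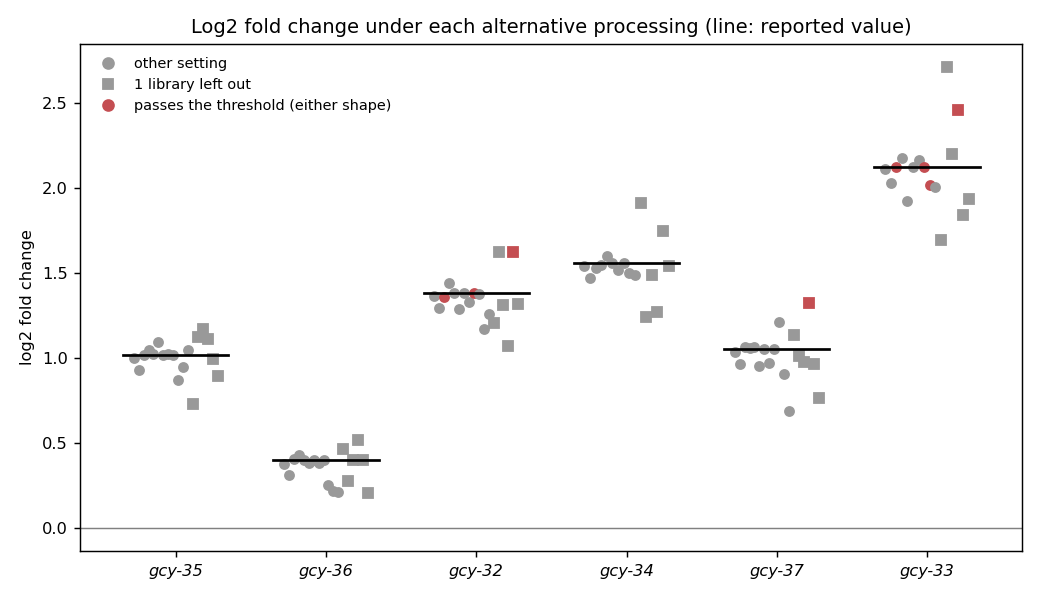
Log2 fold change (vertical axis) of the 6 tested cyclase genes under each alternative processing, squares leaving out 1 library, and a black line at the reported value. Red marks a gene that passed the threshold of that setting. The threshold was 0.05 except in the setting at 0.1, which repeats the reported fit and so its value. All points lie above 0, and red points occur for gcy-32, gcy-33 and gcy-37.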

How the data were processed

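The authors deposited 1 table of estimated counts of transcripts per gene, not normalised between libraries; per the labels' protocols the libraries followed CEL-seq and CEL-seq2. The aligner, annotation, build and use of strand were not given in the sources used here. Inverting the correction for identifiers that meet by chance gave whole numbers, within 0.02, for at least 99.9% of values above 0. For ΔN-BAR-1 replicate 3 this needed a slightly smaller scaling constant than for the other libraries. The values of that library were also more coarsely rounded, and were used as deposited. All columns were used. Estimated counts were rounded and tested with edgeR 4.0.16 in R 4.3.3 (TMM, filterByExpr with min.count 10, robust quasi-likelihood F test, two-sided, group as the only term, 6 libraries), with Benjamini-Hochberg adjustment over 3447 genes and a threshold of 0.05. CPM use TMM-scaled library sizes; standard errors come from the F statistics. DESeq2 1.42.0 and limma-voom (limma 3.58.1) were alternatives. The steps were tested on counts simulated for this comparison, with a common dispersion for all genes and changes made only in genes above a set expected count. Of 3502 genes tested, 97 had been changed 2-fold, of which 20.6% were found. A further 96 had been changed 4-fold, of which 86.5% were found, with 3 false calls.

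The 10 genes, the other lists and the alternatives were chosen with earlier results of these data known. All 10 are named, with up to 3 genes of smallest p per other list and the 5 of most similar profile; other genes named were chosen as defining markers or after their values were seen. Gene overlaps are from the Ensembl 115 annotation of WBcel235, used for neighbours only. No library repeated another: pairs within a group gave a chi-square of 2.98 to 10.8 per degree of freedom. Intervals and floors from counts cover counting error only.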

Additional observations from a re-analysis of the deposited data

How the results depend on the processing

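The 6 tested cyclase genes kept a log2 fold change above 0 under all 18 alternatives that tested them (gcy-33 and gcy-34 were below the stricter filter and were lost after thinning). Among these, the threshold of 0.1 repeats the reported fit and could not move the value. Passing members numbered 2 without a low-count filter (gcy-32, gcy-33), beside 101 of all 10747 genes tested. At a threshold of 0.1 they numbered 2 (the same genes), beside 113 of 3447. With distinct identifiers 1 passed (gcy-33), beside 58 of 3517. With 1 library left out 0 to 2 passed, beside 16 to 121 of the 3630 to 4091 genes tested. Members at an unadjusted p below 0.05 numbered 3 with the stricter filter and 2 after thinning, where 4 members were tested in each. They numbered 3 to 5 with 1 library left out. The shares of all tested genes below that p were 14%, 12.6% and 8.09 to 14.8% at these settings. Over all genes, the count of passing genes went from 57 to 101 with no filter, to 9 by limma-voom, to 35 under the stricter filter, to 113 at a threshold of 0.1, to 22 after thinning, to 17 without both libraries numbered 3 and to 16 to 121 with 1 library left out; the stricter filter and thinning left fewer genes to test (1414 and 1498), and elsewhere the cause was not tested. A replicate block in the fit left 19 passing genes. With it 0 members passed and 5 were at an unadjusted p below 0.05, beside 9.4% of all tested genes. Same-numbered libraries correlated at -0.15, -0.08 and -0.03 after group means were removed, so the numbers were not taken as pairs. After thinning to the shallowest library, pooled counts of gcy-36 were 130 in control and 150 with ΔN-BAR-1, those of gcy-32 were 39 and 98, and those of gcy-33 were 7 and 32. Depth limited gcy-31, tax-2, tax-4 and glb-5 most. In the simulated data 2-fold changes were recovered in 20.6% of cases. Only genes of higher expected count than these were changed there, so that rate does not describe them.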
